A study of Schmidtea mediterranea with 12 samples.

Results

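Of 28069 transcripts of the planarian Schmidtea mediterranea, 350 were abundant in tissue outside the intestine and nearly absent from captures of both medial and lateral intestine. They were chosen on CPM, the counts of a transcript per 1000000 counts of its library, with no other scaling. A member had a mean over the non-intestine libraries of at least 10 CPM that was at least 32 times its mean in medial intestine and also at least 32 times its mean in lateral intestine. Of 6765 transcripts with at least 10 CPM in non-intestine, 555 met the condition on medial intestine and 412 that on lateral intestine. Of these, 205 met only the medial condition and 62 only the lateral condition, and the 350 that met both were 5.17% of the transcripts abundant in non-intestine. Since these means chose the members, the difference from non-intestine is described here and not tested.

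The libraries were made from tissue cut by laser from the anterior of 4 uninjured adult planarians of the asexual clonal line CIW4, each 6 to 9 mm long and starved for 7 days. From stained sections 20 µm thick, medial intestine, lateral intestine and the remaining non-intestinal tissue were captured from the same animals, giving 4 libraries of each tissue and 12 in all. Libraries with the same replicate number come from the same animal, and are called animals 1 to 4. No genotype or treatment differed between the groups, and because all animals belong to a single clonal line, the replicates sample individuals and not genetic backgrounds. Sections of an animal were pooled, and each library started from 5 ng of total RNA that was read near the 3′ ends of transcripts (QuantSeq). Totals were 20416476 to 29454911 counts in medial intestine, 21645454 to 33296270 in lateral intestine and 20227187 to 32272982 in non-intestine.

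The planarian intestine is a blind-ended, branching tube of absorptive phagocytes, secretory goblet cells and basal cells that takes in and distributes food. The tissue around it holds the ciliated epidermis, body wall muscle, the brain and nerve cords, the excretory protonephridia, gland cells, and a mesenchyme with stem cells called neoblasts. A capture of non-intestine is thus a mixture of many cell types, and a transcript of any of them can be a member. All 13 intestine markers taken from the study, among them the transcription factors hnf-4, nkx2.2 and gata4/5/6 and the apolipoproteins apob-1 and apob-2, were called higher in medial and in lateral intestine than in non-intestine. Their summed level was 9541 to 12609 CPM in medial intestine, 5280 to 5797 CPM in lateral intestine and 229 to 322 CPM in non-intestine, so the labels fit the captured tissue. For the level in non-intestine, intestinal tissue in the capture and expression of these markers outside the intestine cannot be told apart.

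Together, the members made up 0.0291%, 0.109%, 0.0237% and 0.0214% of the counts in the medial intestine libraries of animals 1 to 4. They made up 0.0512%, 0.149%, 0.0396% and 0.0560% of the counts in lateral intestine, and 5.91%, 5.66%, 6.01% and 5.13% in non-intestine. In a bulk capture, fewer cells of a type and less RNA per cell cannot be told apart, and this holds for every level given here. The level left in the intestine was not even over animals. Animal 2 stood above the other animals in both intestinal tissues and lay within their range in non-intestine.

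**Figure D1:**
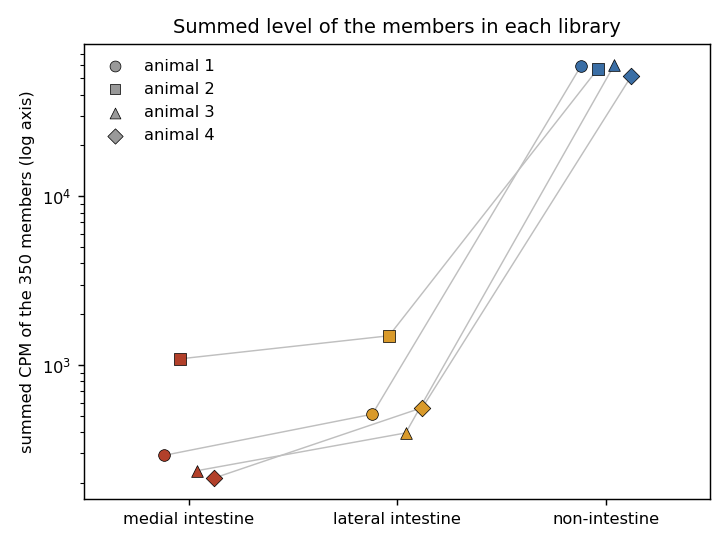
Summed level of the 350 members in each of the 12 libraries, in CPM on a log axis, for medial intestine, lateral intestine and non-intestine. Each point is a library, marker shapes stand for animals and grey lines join libraries of the same animal. Animal 2 summed to 1089 CPM (medial intestine) and 1491 CPM (lateral intestine), above the 214 to 291 CPM and 396 to 560 CPM of the other animals, while non-intestine lay between 51252 and 60122 CPM.

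The summed level was lower in medial than in lateral intestine in each of the 4 animals. Animal 1 had 291 CPM (medial intestine) and 512 CPM (lateral intestine), animal 2 had 1089 and 1491 CPM, animal 3 had 237 and 396 CPM, and animal 4 had 214 and 560 CPM. The ratio of lateral to medial intestine was thus 1.76, 1.37, 1.67 and 2.62 in the 4 animals. Without the 10 most abundant members it was 1.82, 1.26, 1.47 and 2.45, so the order did not rest on these. As percents of non-intestine of the same animal, the members were left at 0.493%, 1.92%, 0.394% and 0.417% in medial intestine of animals 1 to 4. In lateral intestine they were left at 0.865%, 2.63%, 0.659% and 1.09%. The 688 other transcripts called lower in both intestinal tissues were left at 13.2%, 18.3%, 11.4% and 11.6% in medial intestine. In lateral intestine these stood at 17.2%, 18.3%, 14.2% and 17.8%, so they had the same order in animals 1, 3 and 4 and about equal levels in animal 2.

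The most abundant members were mostly short transcripts with no human gene name in the tables used here. The mean level in non-intestine ranged over members from 10.1 to 3781 CPM, with a median of 36.1 CPM. Only 13 members reached 1000 CPM, 71 lay between 100 and 1000 CPM and 266 between 10 and 100 CPM. The 10 most abundant held 42.4% of the members' signal in non-intestine, 43.0% in medial intestine and 45.3% in lateral intestine. The names dd_55, dd_80 and so on are short forms of the identifiers of the dd_Smed_v6 transcriptome, dd_Smed_v6_55_0_1 and dd_Smed_v6_80_0_1 in these cases.

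The transcript dd_55 had the highest level, with 24.2, 165, 8.99 and 3.07 CPM in medial intestine of animals 1 to 4, 32.1, 245, 23.9 and 65.6 CPM in lateral intestine, and 4262, 2876, 4292 and 3695 CPM in non-intestine. Its mean was 50.2 CPM ± 76.7 in medial intestine, 91.7 CPM ± 104 in lateral intestine and 3781 CPM ± 663 in non-intestine (SD, n = 4 each). Animal 2 was the highest in both intestinal tissues and the lowest in non-intestine. The transcript dd_80 had 8.35, 94.6, 2.03 and 8.78 CPM in medial intestine, 10.7, 204, 18.1 and 28.6 CPM in lateral intestine, and 3995, 3737, 3959 and 3242 CPM in non-intestine. The transcript dd_18 had 6.21, 78.9, 2.08 and 2.87 CPM in medial intestine, 5.97, 78.2, 18.0 and 15.3 CPM in lateral intestine, and 3455, 3246, 4268 and 2317 CPM in non-intestine. The transcript dd_68 had 8.11, 61.0, 2.13 and 0.158 CPM in medial intestine, 8.91, 112, 2.10 and 11.6 CPM in lateral intestine, and 2485, 2470, 2822 and 2368 CPM in non-intestine. For each of these transcripts animal 2 was the highest in medial and in lateral intestine, and it was not the highest in non-intestine.

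Other leading members followed animal 2 less or not at all. The transcript dd_298 had 23.3, 11, 25.5 and 49.5 CPM in medial intestine, 32.7, 18.8, 31.4 and 30.2 CPM in lateral intestine, and 1492, 1545, 1512 and 804 CPM in non-intestine. Here animal 2 was the lowest in both intestinal tissues, and animal 4 was the lowest in non-intestine. The transcript dd_125, with a best human match to AHNAK, a very large scaffold protein, had 11.3, 16.1, 14.7 and 8.15 CPM in medial intestine, 29.0, 24.8, 13.7 and 29.8 CPM in lateral intestine, and 1769, 1891, 1724 and 2405 CPM in non-intestine. The match of dd_125 was one-way, and the transcript is 370 bases long. The transcript dd_357 had 6.55, 3.62, 11.1 and 1.46 CPM in medial intestine, 26.2, 12.4, 7.48 and 23.1 CPM in lateral intestine, and 1943, 1511, 1233 and 1818 CPM in non-intestine. Animal 2 fell among the other animals in lateral intestine for both dd_125 and dd_357, while in medial intestine it was the highest for dd_125 and not for dd_357.

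**Figure D2:**
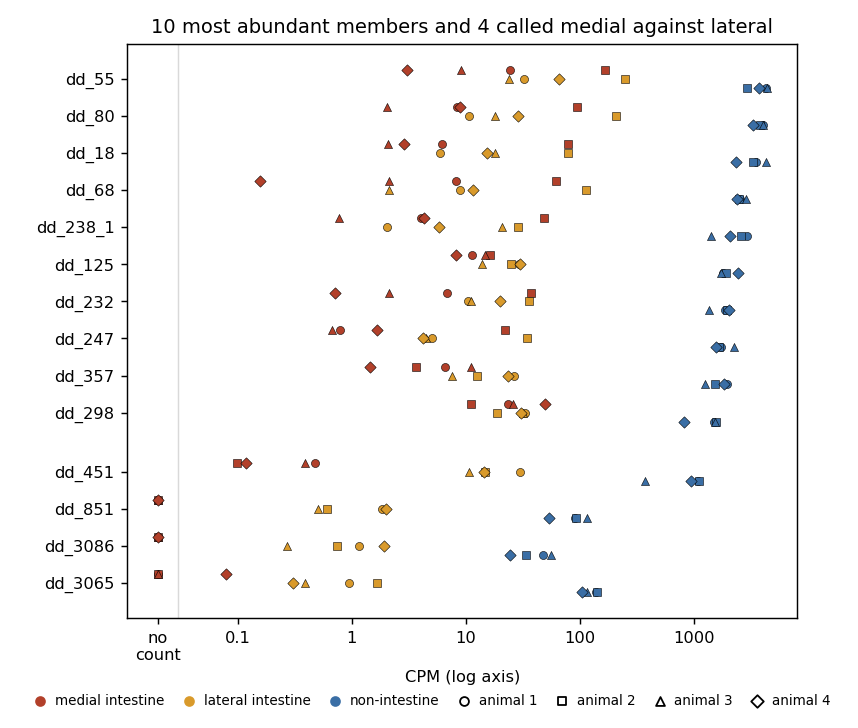
Level of the 10 most abundant members and, below them, of the 4 members called between medial and lateral intestine, in CPM on a log axis, with a strip at the left for libraries with no count. Each point is a library, colours stand for tissues and marker shapes for animals. For dd_55, dd_80, dd_18, dd_68 and dd_247 the squares of animal 2 lie at the right end of both intestinal tissues, and for dd_851 and dd_3086 all 4 medial intestine libraries are in the strip of no count.

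Per length of transcript, as TPM (the count divided by length and scaled to a common total, computed here from the counts and deposited lengths), dd_80 and dd_55 led the members in non-intestine, at 8703 and 8191 TPM. The transcript dd_238_1, among the 10 leading by CPM, is 11064 bases long and took rank 68 per length, at 231 TPM. Reads of this protocol come from the 3′ end and do not increase with length as in whole-transcript sequencing, so the order by CPM is shown beside it. The members were short. Their median length was 967 bases, against 1527 bases for the 6415 other transcripts with at least 10 CPM in non-intestine, and 51.4% of members were under 1000 bases, against 26.7% of the others. Where the table of human matches used here covered them, 23 of 43 members (53.5%) had a human match, against 522 of 679 other transcripts (76.9%). These are descriptions without a test.

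For each member, the mean left in the intestine was set against its mean in non-intestine. In medial intestine, the median over members was 0.581% of the non-intestine level, with quartiles of 0.0961% and 1.23% and a highest value of 3.08%. In lateral intestine, the median was 1.17%, with quartiles of 0.638% and 2.00% and a highest value of 3.12%, close to the limit that a fold of 32 sets. In medial intestine 238 of the 350 members were under 1%, and in lateral intestine 148. No count at all was found for 56 members in the 4 medial intestine libraries, for 23 members in the 4 lateral intestine libraries, and for 14 members in all 8. A count of 0 over the pooled libraries of a tissue allows a level of up to 0.0313 CPM (medial intestine) or 0.0276 CPM (lateral intestine), at 3 counts. No molecular identifiers are mentioned for these libraries, so such limits cover counting error only.

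Members just inside and just outside each threshold had nearly the same values. On the level in non-intestine, dd_10363, dd_6559 and dd_9968 entered at 10.1, 10.2 and 10.2 CPM, and dd_9926_1, dd_8141 and dd_10673 stayed out at 9.94, 9.92 and 9.85 CPM. On the fold over medial intestine, dd_4335, dd_8497 and dd_9679 entered at 32.5, 32.7 and 33.0, and dd_14286, dd_10194 and dd_332 stayed out at 30.3, 29.1 and 29.0. On the fold over lateral intestine, dd_13453, dd_8401 and dd_2937 entered at 32, 32 and 32.1, and dd_5240, dd_1996 and dd_3571 stayed out at 31.8, 31.8 and 31.6. The scaling of the libraries sets where this edge falls. With CPM on TMM-adjusted library sizes, whose factors were 0.765 to 0.923 in medial intestine, 0.794 to 0.985 in lateral intestine and 1.21 to 1.5 in non-intestine, 210 transcripts met the same rule, and all 210 were members.

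Among the members with no count in the 8 intestinal libraries, dd_26589 was the most abundant, with 49.3, 41.2, 27.3 and 29.8 CPM in non-intestine of animals 1 to 4. Its level in non-intestine was at least 1187-fold higher than in medial intestine and at least 1345-fold higher than in lateral intestine, against a floor of 3 counts over the pooled libraries of each. The next were dd_6728, with 38.3, 38.1, 18.0 and 25.3 CPM in non-intestine, and dd_6890, with 19.2, 24.1, 17.9 and 23.2 CPM. They were followed by dd_7161, between 16.4 and 20.4 CPM, and dd_5536, between 15.0 and 21.3 CPM. These 5 were detected in every non-intestine library. The transcript dd_829, chosen after its values were seen, was more abundant and nearly as absent, with 0, 0.0980, 0 and 0 CPM in medial intestine, 0.0724, 0, 0.541 and 0.0381 CPM in lateral intestine, and 298, 219, 259 and 283 CPM in non-intestine. This was 2 counts over all medial intestine libraries and 21 counts over those of lateral intestine, of 25399 counts in non-intestine.

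A human gene name in the study's tables was paired with 20 members, and 7 more were paired with the accession of a human protein whose name is given here, chosen after their values were seen. The other 323 carry no name here, partly because the tables used are shortened. Of the 27 matches, 18 were reciprocal best matches and 9 were best matches in one direction. The roles given below are those known in mammals.

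Several of the named members matched proteins of cilia, the motile or sensory projections that cover the ventral epidermis and drive flow in the protonephridia of planarians. They were grouped after their names and values were seen, so no test of the group was made. RPGRIP1L, CC2D2A and TCTN2 belong to the transition zone at the base of a cilium. The RPGRIP1L match dd_11425 had 0.238, 0, 0.0967 and 1.69 CPM in medial intestine, 0.145, 0, 0.451 and 0.458 CPM in lateral intestine, and 30.7, 37.1, 34.6 and 41.9 CPM in non-intestine. Most of its medial signal came from animal 4, and the 8 intestinal libraries lay far below all 4 of non-intestine. CC2D2A (dd_11189) averaged 0.269 CPM ± 0.372 in medial intestine, 0.409 CPM ± 0.473 in lateral intestine and 20.6 CPM ± 3.66 in non-intestine (SD, n = 4 each). TCTN2 (dd_11318) averaged 0.110 CPM in medial intestine, 0.321 CPM in lateral intestine and 11.8 CPM in non-intestine.

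Other matches of this kind act in the shaft or the base of the cilium. DYX1C1 (dd_12396), which helps to assemble the dynein arms that move a cilium, averaged 0.145 CPM in medial intestine, 0.485 CPM in lateral intestine and 16.7 CPM in non-intestine. CCDC41 (dd_12969), a protein of the appendages that dock the basal body to the membrane, averaged 0.195 CPM in medial intestine, 0.406 CPM in lateral intestine and 14.1 CPM in non-intestine. TTC40 (dd_14103), a part of the central pair apparatus, averaged 0.196 CPM in medial intestine, 0.230 CPM in lateral intestine and 11 CPM in non-intestine. C1orf192 (dd_2157), a protein of the basal body, was the most abundant of these, with a mean of 1.19 CPM in medial intestine, 2.01 CPM in lateral intestine and 115 CPM in non-intestine.

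Among these matches, ZMYND12 (dd_10079), an axoneme-associated protein of sperm flagella, came closest to a complete absence. It had no count in the 4 medial intestine libraries, counts in lateral intestine of animal 2 alone at 0.370 CPM, and 28.1, 25, 29.2 and 26.9 CPM in non-intestine. Its level in non-intestine was at least 864-fold higher than in medial intestine.

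The light chains DYNLL1 and DYNLL2 are small subunits shared by dynein motors and other complexes. Their matches dd_107 and dd_116 were the most abundant named members after dd_125, and reads of 2 such similar transcripts may be divided between them. The DYNLL1 match dd_107 averaged 11.4 CPM ± 5.07 in medial intestine, 13.1 CPM ± 6.79 in lateral intestine and 1321 CPM ± 292 in non-intestine (SD, n = 4 each). The DYNLL2 match dd_116 had 1.49, 12.5, 0.338 and 0.354 CPM in medial intestine, 0.688, 5.91, 1.5 and 0.381 CPM in lateral intestine, and 383, 564, 636.4 and 553 CPM in non-intestine. As for dd_55, animal 2 was the highest in both intestinal tissues.

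Members matching proteins of signalling and of nerve cells were scarcer. CHAT, choline acetyltransferase, makes the transmitter acetylcholine and marks cholinergic neurons. Its match dd_11968 had no count in any of the 8 intestinal libraries, and 14.1, 12.2, 18.4 and 12.7 CPM in non-intestine. This was at least 448-fold higher in non-intestine than in medial intestine and at least 508-fold higher than in lateral intestine. TRPM2 is a cation channel, and its match dd_10717 had no count in medial intestine, 0.0724, 0.878, 0.571 and 0 CPM in lateral intestine, and 17.5, 17.0, 16.7 and 13.8 CPM in non-intestine. JAG1 is a ligand of the Notch receptor, and its match dd_11876 had 0.340, 0, 0.580 and 0 CPM in medial intestine, 2.14, 1.39, 0.180 and 0.686 CPM in lateral intestine, and 38.5, 32.8, 34.5 and 43.0 CPM in non-intestine. For dd_11876 the medial and lateral libraries overlapped.

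The remaining named members had varied roles. CAV3, a caveolin of muscle membranes (dd_1086), averaged 1.47 CPM in medial intestine, 1.77 CPM in lateral intestine and 107 CPM in non-intestine. The selenoprotein SEPW1 (dd_1908) averaged 2.72 CPM in medial intestine, 3.01 CPM in lateral intestine and 128 CPM in non-intestine. SYNE1 (dd_15904), which links the nucleus to the cytoskeleton, averaged 0.206 CPM in medial intestine, 0.482 CPM in lateral intestine and 22.5 CPM in non-intestine. The match dd_12254 to the intermediate filament protein VIM had no count in the intestine and 7.07, 11.8, 13 and 13.7 CPM in non-intestine. The CAP-domain protein GLIPR2 (dd_1988) averaged 0.821 CPM in medial intestine, 1.23 CPM in lateral intestine and 90.5 CPM in non-intestine. The members matching LOXHD1, FHAD1, LRRC71, SMKR1, CCDC180, ENO4, IFLTD1 and KIAA1257 lay between 11.4 and 37.5 CPM in non-intestine and under 1 CPM in each intestinal tissue.

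Lists of words in the human gene descriptions show the members within their wider groups. The tests took in the 13136 transcripts that reached 1 CPM in 4 or more libraries, and 2491 of them had a human name. Against non-intestine, 11.5% of the tested transcripts were called lower in medial intestine and 8.75% in lateral intestine, and 12.8% and 11.7% were called higher (edgeR quasi-likelihood test, FDR under 0.01 and a fold over 2). The transcripts with a human name leaned the other way, with 6.74% lower and 26.5% higher in medial intestine, and 5.06% lower and 23.7% higher in lateral intestine. Among 35 transcripts whose description in the tables names dynein, tubulin, tektin or another term of cilia, 6 were lower and 3 higher in medial intestine, and 3 were lower and 3 higher in lateral intestine. The median log2 fold change of this list was -2.24 in medial intestine and -1.01 in lateral intestine, against 0.17 and 0.15 over the transcripts with a human name and -0.17 and -0.12 over all tested transcripts. None of the 35 was a member. The members described above that match RPGRIP1L, CC2D2A, TCTN2, DYX1C1, CCDC41, TTC40, C1orf192 and ZMYND12 were not caught by these terms, so the list does not cover all genes of cilia. The DYNLL1 and DYNLL2 matches dd_107 and dd_116 would join the list only through names taken from accessions of members. With these and other transcripts paired with such accessions, as dd_11037, 9 of 39 were lower in medial intestine and 6 in lateral intestine.

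Lists of other kinds had few members or none. Of 58 transcripts with terms of nerve cells and channels, 6 were lower and 9 higher in medial intestine, and 8 were lower and 10 higher in lateral intestine. Only the TRPM2 match was a member among these 58. The CHAT match, also a member, was not caught by these terms. Of 82 described as receptors, 3 were lower and 15 higher in medial intestine, 2 were lower and 14 higher in lateral intestine, and the TRPM2 match was again the only member. Of 68 with terms of transcription factors, 9 were lower and 7 higher in medial intestine, and 9 were lower and 8 higher in lateral intestine. The 2 members that these terms caught, ZMYND12 and FHAD1, are not known as transcription factors. Of 25 with terms of the cell cycle, 3 were lower in medial and 2 in lateral intestine, and none was higher.

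No member was found among 21 transcripts with terms of muscle and matrix, of which 2 were lower and 8 higher in medial intestine and 1 was lower and 7 higher in lateral intestine. These terms did not catch the CAV3 match, which is a member. There was also none among 47 with terms of proteases, of which 4 were lower and 21 higher in medial intestine and 3 were lower and 19 higher in lateral intestine. Of the tested members, 322 were called lower in medial intestine and 307 in lateral intestine, beside 11.5% and 8.75% of all transcripts tested. These counts follow from the rule, since the same contrasts chose the members, and nothing is read from them.

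The rule did not compare medial with lateral intestine, but it limited the mean of members in both tissues. The difference between the 2 tissues was tested for each transcript, and for members it is not independent of the choice. Of the 349 members tested, 4 were called lower in medial than in lateral intestine and 0 higher (edgeR quasi-likelihood test on all 13136 transcripts, FDR under 0.01 and a fold over 1.5). This was 1.15% of the members tested, beside 0.289% of all transcripts tested called in either direction, 0.16% lower and 0.129% higher. At an unadjusted p under 0.05, 82 members were lower and 13 higher in medial intestine. This was 23.5% and 3.72% of the members tested, beside 5.62% and 2.89% of all transcripts tested. A likelihood ratio test called 19 members lower and 2 higher in medial intestine, beside 128 lower and 47 higher over all transcripts. DESeq2 called 15 members lower and 1 higher, beside 120 lower and 53 higher over all transcripts. In a paired fit, where animal entered as a replicate block, 1 of the 4 was still called. The member left out of the tests, dd_3193, reached 1 CPM in too few libraries.

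The clearest difference was in dd_451, a transcript of 1111 bases with no human name here. It had 0.475, 0.0980, 0.387 and 0.118 CPM in medial intestine of animals 1 to 4, 29.4, 14.7, 10.6 and 14.3 CPM in lateral intestine, and 1077, 1096, 367 and 926 CPM in non-intestine. All 4 lateral libraries were above all 4 medial libraries, and the lowest level in non-intestine, in animal 3, went with the lowest in lateral intestine. The log2 fold change of medial over lateral intestine was -5.90 ± 0.60 (SE; edgeR adjusted p = 0.000289), and it was called in each of the alternative fits, including the pairing by animal (adjusted p = 0.000535) and each fit without a library or an animal. Its mean was 0.0311% of the non-intestine level in medial intestine and 1.99% in lateral intestine.

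The other called members were less abundant. The transcript dd_851 had no count in medial intestine, 1.85, 0.601, 0.511 and 1.98 CPM in lateral intestine, and 90.8, 91.4, 114 and 53.5 CPM in non-intestine. It was at least 39.1-fold lower in medial than in lateral intestine, against the floor of 3 counts (edgeR adjusted p = 0.00562, or 0.0244 when paired by animal). The transcript dd_3086 had no count in medial intestine, 1.16, 0.739, 0.270 and 1.91 CPM in lateral intestine, and 47.0, 33.8, 55.3 and 24.5 CPM in non-intestine. It was at least 31.5-fold lower in medial than in lateral intestine (edgeR adjusted p = 0.00775, or 0.0286 when paired).

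The transcript dd_3065 had 0, 0, 0 and 0.0788 CPM in medial intestine, 0.942, 1.66, 0.390 and 0.305 CPM in lateral intestine, and 137, 139, 116 and 104 CPM in non-intestine. On the log2 scale, medial over lateral intestine differed by -4.96 ± 0.79 (SE; edgeR adjusted p = 0.00906, or 0.0152 when paired). For dd_851, dd_3086 and dd_3065 the lateral values were above the medial ones in all 4 animals. Without any one animal, dd_851 and dd_3086 were no longer called, at fitted log2 fold changes of -8.46 to -7.87 and -8.22 to -7.43. The same held for dd_3065 without animal 1, 3 or 4 (-7.82 to -4.39), and without animal 2 it did not enter the test. The next by p, dd_1548, had 0.340, 0.0490, 0.242 and 0 CPM in medial intestine, 1.99, 1.25, 1.92 and 2.02 CPM in lateral intestine, and 88.7, 106, 81.0 and 73.4 CPM in non-intestine. It missed the threshold (edgeR adjusted p = 0.0141).

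The largest difference in the other direction rested on a single library. The transcript dd_3845, chosen after its values were seen, had 0.170, 0.0490, 23.1 and 0 CPM in medial intestine, 0.0362, 0.0462, 0.0300 and 0.0381 CPM in lateral intestine, and 288, 134, 216 and 136 CPM in non-intestine. Medial intestine of animal 3 held nearly all of its 483 medial counts. The log2 fold change of 7.30 ± 2.02 did not pass the test (SE; edgeR adjusted p = 0.210).

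**Figure D3:**
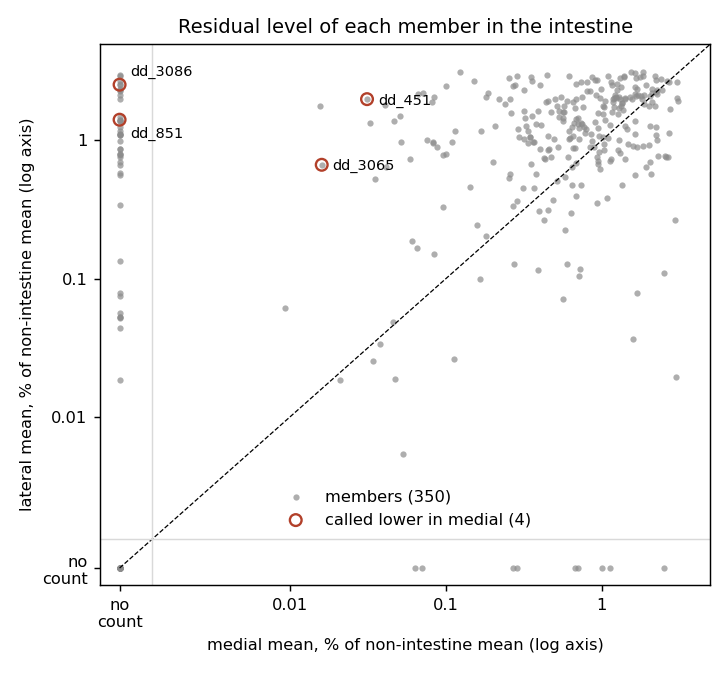
Mean level of each of the 350 members in medial intestine (horizontal) and lateral intestine (vertical), as a percent of its mean in non-intestine, on log axes with strips for members with no count. Each point is a member, rings mark the 4 called between the tissues, and the dashed line marks equal levels. Most points lie above the line, as 247 members had the lower mean in medial intestine and 89 in lateral intestine, and the 4 rings lie far above it.

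Over all members, 247 had a lower mean in medial than in lateral intestine, 89 a higher one, and 14 were equal with no count in either. This was 70.6% of members with the lower mean in medial intestine, beside 58.4% of all transcripts tested and 57.5% of the other transcripts with at least 10 CPM in non-intestine. The rule limited both means of the members, so these shares are given as descriptions without a test. All 13 members from 1000 CPM had the lower mean in medial intestine, although that of dd_238_1 differed only beyond the third digit (14.3 CPM in each). Of the 71 members from 100 to 1000 CPM 50 did, and of the 266 from 10 to 100 CPM 184 did. The median log2 ratio of medial over lateral means, with 0.1 CPM added to each, was -0.58 for members and -0.09 for all transcripts tested.

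Within single animals fewer members could be ordered. Medial intestine was below lateral intestine for 187, 160, 172 and 167 members in animals 1 to 4, and above it for 100, 80, 105 and 55 members. In each animal more members were below than above. Those below were 53.4%, 45.7%, 49.1% and 47.7% of all members. Over all transcripts tested, medial intestine was the lower for 48.2%, 56.4%, 53.3% and 49.8%. The members on neither side had no count in either library and remain in these shares, so the shares do not compare the order directly. With them, the median log2 ratio over all members was -0.18 in animal 1 and 0 in each of the other animals. Only 35 members were lower in medial intestine in all 4 animals, and 2, dd_584 and dd_3833, were higher in all 4. The median over the means moved with single libraries. It was -0.19 without the lateral library of animal 2 and -0.96 without its medial library, -0.59 without animal 2 altogether and -0.35 without animal 4.

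Residual counts of single members were scattered over the replicate libraries. In medial intestine, 86 members had a count in 1 of the 4 libraries, 85 in 2, 59 in 3 and 64 in all 4. In lateral intestine these numbers were 70, 63, 76 and 118. Where a member had more than 3 counts in a tissue, at least 90% of them came from a single library for 90 of 262 members in medial intestine and 64 of 305 in lateral intestine, and for none of the 350 in non-intestine. In non-intestine 349 members had counts in all 4 libraries, and only dd_3193 did not. The rule asked for a high level in non-intestine and limited the level in the intestine, so the contrast between these tissues follows in part from the choice. Other transcripts at such low counts were not examined.

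**Figure D4:**
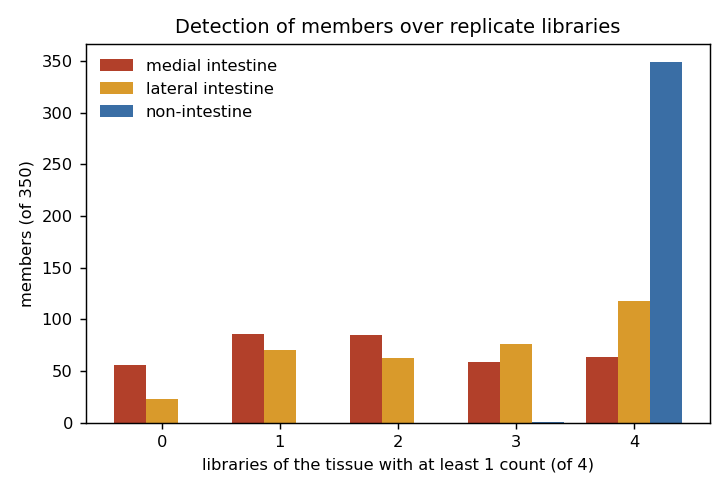
Number of members (of 350, vertical) with at least 1 count in 0, 1, 2, 3 or 4 of the 4 libraries of a tissue (horizontal), for medial intestine, lateral intestine and non-intestine. In medial intestine 64 members and in lateral intestine 118 members were found in all 4 libraries, against 349 in non-intestine, a contrast that follows in part from the rule.

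Detection and summed level went in different directions in animal 2. In medial intestine, 213, 138, 209 and 129 members had a count in animals 1 to 4, and in lateral intestine 248, 220, 235 and 193. The medial library of animal 2 thus had the highest sum and fewer detected members than animals 1 and 3. It also had the fewest transcripts with any count of the 12 libraries, 10891, beside 11668 to 14476 in the other medial libraries, and its sum of intestine markers, 9541 CPM, was the lowest of medial intestine. The part of these in the raised sum was not tested.

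A subset of members was raised in animal 2 in both intestinal tissues. In medial intestine 80 members, and in lateral intestine 89, had a level in animal 2 more than 2-fold above the highest of the other 3 animals, and 41 did so in both, which was 51.2% of the medial and 46.1% of the lateral set. The same count for both tissues was 10 members in animal 1, 5 in animal 3 and 0 in animal 4. The shares over all transcripts tested were not computed, so these counts are descriptions and are not read as a trait of the members. The 41 members included 5 of the 10 most abundant, dd_55, dd_80, dd_18, dd_68 and dd_247, and the DYNLL2 match dd_116. Their median length was 576 bases, against 1043 bases for the other 309 members, and their median level in non-intestine was 274 CPM, against 31.7 CPM. The choice asked for counts in animal 2 in both tissues, and its part in these differences was not tested.

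These 41 members, chosen on these values, summed to 79.4, 742, 33.5 and 31.7 CPM in medial intestine of animals 1 to 4. In lateral intestine they summed to 105, 1022, 106 and 178 CPM, and in non-intestine to 27206, 25526, 31114 and 22950 CPM. In animal 2 they gave 68.2% of the members' signal in medial and 68.5% in lateral intestine, shares that follow in part from the choice. The other 309 members summed to 212, 347, 203 and 182 CPM in medial intestine, and to 407, 469, 290 and 382 CPM in lateral intestine. Animal 2 was the highest for these as well, by a smaller margin.

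**Figure D5:**
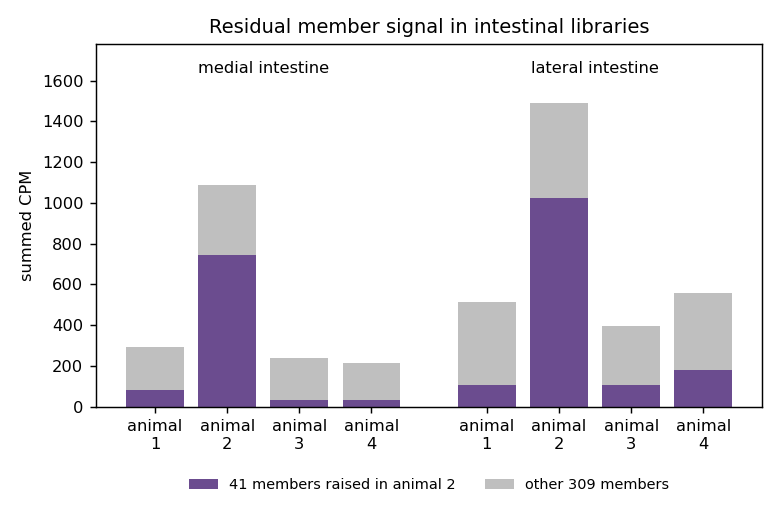
Summed CPM of the members in the 8 intestinal libraries, medial intestine at the left and lateral intestine at the right, by animal. Bars are stacked from 0 and split into the 41 members raised more than 2-fold in animal 2 in both tissues and the other 309. In animal 2 the 41 members reached 742 CPM (medial) and 1022 CPM (lateral), against 31.7 to 79.4 CPM and 105 to 178 CPM in the other animals.

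In non-intestine the members were about as even over animals as other abundant transcripts. The coefficient of variation over the 4 libraries had a median of 21.4% over members, with quartiles of 14.9% and 30.5%, and of 19.4% over the other transcripts with at least 10 CPM there, with quartiles of 13.8% and 27.4%. For 257 members the highest library was within 2-fold of the lowest. The most even were dd_3133, with 45.8, 48.9, 46.3 and 48.2 CPM in non-intestine, dd_8437 (11.5 to 12.5 CPM) and dd_5119 (71.0 to 78.3 CPM).

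In 10 members the variation was over 50%. The most uneven was dd_3193, with 0.742, 6.04, 0 and 54.1 CPM in non-intestine and no count in the intestine. Its mean of 15.2 CPM thus rested on animal 4. The transcript dd_570 had 0.509, 0, 0 and 0 CPM in medial intestine, 0, 0, 0.150 and 0 CPM in lateral intestine, and 14.9, 10.0, 16.4 and 89.1 CPM in non-intestine, again with animal 4 the highest. The transcript dd_7131 had 32, 5.79, 15.9 and 13.6 CPM in non-intestine, with animal 1 the highest.

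Whether the depletion held in an animal that did not take part in the choice was examined by applying the rule to 3 animals and reading the fourth. With animals 1, 2, 3 and 4 held out, 356, 403, 320 and 356 transcripts were chosen. In the held-out animal, 255, 228, 260 and 261 of them were at least 32-fold above both intestinal tissues in non-intestine, which was 71.6%, 56.6%, 81.2% and 73.3%. At least 4-fold was reached by 356, 395, 319 and 353 of them, and only 1 transcript, in animal 3, was not above both. The same shares over all transcripts were not computed, so these counts are given as descriptions. The lowest share was that of animal 2, whose intestinal libraries held more of the members' signal. Of the 350 members themselves, 140 were at least 32-fold above both tissues within each of the 4 animals, 143 within 3, 58 within 2 and 9 within 1.

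Across members, the level left in the intestine followed the level in non-intestine. Spearman's rho between the means was 0.70 for medial intestine and non-intestine and 0.79 for lateral intestine and non-intestine. The percents left in medial and in lateral intestine were less alike, with a rho of 0.34. These values are across 350 transcripts of the same 12 libraries, which share depth and animals and are not independent, and the rule limits both percents, so they are given as descriptions. Every intestinal library was below every non-intestine library for all 349 members tested, and for 35.5% of all transcripts tested. The same libraries chose the members, so nothing is read from this.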

How the data were processed

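Libraries of 3′ mRNA were made from laser-captured tissue. The authors trimmed the reads and aligned them to the dd_Smed_v6 transcriptome (Bowtie2 2.3.1), handled alignments with SAMtools 1.3 and used edgeR 3.8.6, as the submitters' processing notes name them. The authors deposited unnormalized read counts per transcript, which were the values used here, with transcript lengths in bases. The authors' second table (normalized values and their own fold changes and p-values) was not used. Reads of similar transcripts may be divided between them, and strand was not considered.

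CPM was computed on the column sums. Tests were run in R 4.3.3 with edgeR 4.0.16 (TMM, quasi-likelihood, all 12 libraries and 3 tissues in a single model) on transcripts that reached 1 CPM in 4 or more libraries, with Benjamini-Hochberg adjustment over all of them. Summaries used Python 3.11.15, pandas 2.3.3, numpy 2.4.6 and matplotlib 3.10.9. The fit was tested on simulated data. Alternatives were edgeR's likelihood ratio test, DESeq2 1.42.0, DESeq2 size factors, no filter beyond 1 count, other thresholds, the animal as a block, and each library or animal left out.

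Same-numbered libraries come from the same animal, per the study's methods. The correlation of their deviations from the tissue means, across transcripts, was 0.04 to 0.17 for medial and lateral intestine, -0.01 to 0.14 for medial intestine and non-intestine, and 0.08 to 0.23 for lateral intestine and non-intestine. Counting limits cover counting error only. The members and lists were chosen with earlier results of these data known. Members were named if among the 10 most abundant, paired with a human name, called between medial and lateral intestine, next to a threshold, among the 5 most abundant with no intestinal count, or among the 3 most extreme in spread or in percent left in each intestinal tissue.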

Additional observations from a re-analysis of the deposited data

Results flagged for a closer look

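A library was marked where its gap to the nearest of the other 3 libraries of its tissue was, relative to the range of the 4, above Dixon's critical value. Of 58 groups of 4 libraries examined, for 20 members and the summed level, 20 were marked, and 15 of them were an intestinal library of animal 2. Chance marks about 1 in 20 independent groups, but these groups share the same 12 libraries and some members were chosen after their values were seen, so that the 2 rates cannot be compared. For the summed level these were the medial library at 1089 CPM and the lateral library at 1491 CPM.

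For single members in medial intestine, animal 2 was marked for dd_55 (165 CPM), dd_80 (94.6 CPM), dd_18 (78.9 CPM), dd_68 (61.0 CPM), dd_238_1 (48.0 CPM), dd_232 (37.2 CPM), dd_247 (21.7 CPM) and dd_829 (0.0980 CPM). In lateral intestine it was marked for dd_80 (204 CPM), dd_18 (78.2 CPM), dd_68 (112 CPM), dd_247 (34.3 CPM) and dd_10079 (0.370 CPM). Other animals were marked in medial intestine for dd_3065 (animal 4, 0.0788 CPM), dd_11425 (animal 4, 1.69 CPM) and dd_3845 (animal 3, 23.1 CPM). They were also marked in lateral intestine for dd_829 (animal 3, 0.541 CPM) and in non-intestine for dd_298 (animal 4, 804 CPM, the lowest). A mark on dd_829, dd_3065 or dd_10079 stands for few counts.

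The 4 members called in the test of medial against lateral intestine had fitted log2 fold changes of -5.90 (dd_451), -8.20 (dd_851), -7.90 (dd_3086) and -4.96 (dd_3065). The fitted values of dd_851 and dd_3086, which had no count in medial intestine, depend on the prior count and are no limits.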

How the results depend on the processing

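The number of members was 210 on TMM-normalized CPM, 583 at a fold of 16, 193 at a fold of 64 and 140 where the fold of 32 was required within each animal, and 320 to 403 without single libraries or animals. Between medial and lateral intestine, the likelihood ratio test called 21 members and 175 transcripts in all, DESeq2 called 16 and 173, the replicate block called 1 member (dd_451) and 33 transcripts, and an FDR under 0.05 with no fold threshold called 68 transcripts. Leaving out a library or an animal gave 1 to 4 members and 12 to 34 transcripts called, in fits with fewer samples, and dd_451 was called in each of these fits. Against non-intestine, leaving out an animal gave 127 to 157 members called lower in medial and 98 to 146 in lateral intestine, while the replicate block changed neither count by over 1.5 times. Without an animal, the filter still asked for 1 CPM in 4 or more libraries, and fewer than 4 non-intestine libraries were left. A member under 1 CPM in every intestinal library could then not be tested. The part of this in the lower counts was not tested, so nothing on the strength of the depletion is read from them. The median log2 ratio of medial over lateral intestine was -0.38 for members at a fold of 64, -0.69 and -0.18 with 0.02 and 1 CPM added, and -0.96 to -0.19 without single libraries or animals. The members higher in medial than in lateral intestine numbered 154 of the 583 at a fold of 16 and 53 of the 193 at a fold of 64, and 71 to 126 without single libraries or animals. Over all transcripts called, 17 were higher and 21 lower in medial intestine, but 20 and 13 with the replicate block. The cilia list held 39 transcripts with the added names against 35 without, an alternative chosen after seeing the data. The depth limits members of few counts: 1 count is 0.0300 to 0.0490 CPM in the intestinal libraries. The cause of these changes was not tested.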
